A study of Mus musculus with 8 samples.

Results

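The genes described are 7 mouse genes whose proteins carry CCCH zinc fingers and shorten the life of messenger RNAs: Zfp36, Zfp36l1, Zfp36l2, Zc3h12a, Zc3h12d, Rc3h1 and Rc3h2. They were taken by symbol, and all 7 were present among the 14042 genes of the deposited tables. Expression was measured by RNA sequencing in 8 libraries of CD4 T cells, 2 in each of 4 groups. For TFH KO and TFH WT, (bxd)F1 recipients were given 10000000 spleen cells, depleted of CD8 cells, of C5aR1-/- (KO) or wild type (WT) donors. On day 7 the donor CD4 cells bearing CXCR5 and much PD1, as T follicular helper (TFH) cells do, were sorted from the spleens. Naive KO and naive WT are control CD4 T cells of the same genotypes, sorted as CD62Lhi and CD44 lo, for which the labels mention no transfer. C5aR1 is a receptor of the complement fragment C5a. The transferred groups therefore differ from the naive groups in transfer, host and sort gate together, and these cannot be told apart. The labels give no age, sex or donor strain, and leave unsaid whether 2 libraries of a group stem from different animals, so p-values measure only the spread between these libraries, which may be technical.

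Levels are the deposited log2 values, on a scale shared by all libraries. A change is the mean of one group minus that of another on this scale, with its SE and n = 2 libraries in each, so that 1 unit is a doubling. Cd4 lay between 15.53 and 15.69 in TFH-labelled libraries and between 15.48 and 15.63 in naive-labelled libraries. Il21, which TFH cells secrete to help B cells, was 9.58 to 10.40 in TFH-labelled and 7.31 to 8.19 in naive-labelled libraries, whereas Cxcr5, a sort marker, was 10.85 to 11.56 in TFH-labelled and 11.56 to 12.45 in naive-labelled libraries. Cd44, low on the surface of the naive gate, was 11.97 to 12.11 in TFH-labelled and 12.53 to 13.04 in naive-labelled libraries, and fell in KO by 0.63 ± 0.14 and in WT by 0.75 ± 0.14. Pdcd1, which encodes PD1, was 11.88 to 12.85 in TFH-labelled and 10.80 to 11.97 in naive-labelled libraries. Bcl6, the transcription factor of TFH cells, was 11.33 to 11.92 in TFH-labelled and 10.78 to 11.18 in naive-labelled libraries. The transcripts of Cxcr5 and Cd44 thus ran against the gates while Il21, Bcl6 and, with overlap, Pdcd1 ran with them, and groups are called by their labels. B cell markers, 14 genes, summed to 76.6 and 861 parts per 1000000 of all linear values in the TFH KO libraries, 88.7 and 317 in TFH WT, 323 and 196 in naive KO, and 237 and 148 in naive WT. Myeloid markers, 18 genes, summed to 305 to 478 parts per 1000000 in TFH-labelled libraries and to 597 to 1394 in naive-labelled libraries, the highest in naive WT replicate 1. C5ar1 was not analysed here, so the genotype was not checked on the deleted gene.

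Messenger RNAs of cytokines and immune regulators are short-lived because proteins bind elements in their 3′ untranslated regions (UTRs). Zfp36, also called tristetraprolin, and its relatives Zfp36l1 and Zfp36l2 bind AU-rich elements through a pair of zinc fingers and recruit the CCR4-NOT complex, which removes the poly(A) tail. Zc3h12a, known as Regnase-1, is an endonuclease that cleaves stem-loops, and Zc3h12d is a related nuclease. Rc3h1 and Rc3h2 encode Roquin-1 and Roquin-2, ubiquitin ligase family proteins that bind stem-loops and restrain Icos and Tnfrsf4 mRNA in T cells. A point mutation of Rc3h1 gives mice an excess of TFH cells and lupus-like disease.

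The genes differ in the AU-rich heptamer TATTTAT, written as DNA, the core of the ZFP36-family binding element. One coding transcript per gene was searched on its own strand in GENCODE vM21 on GRCm38. The heptamer was found in the 3′ UTR of 5 of the 7 genes, against 27.6% of 13027 measured genes with a 3′ UTR in that annotation. Zfp36, Zfp36l1 and Zfp36l2 held 3 copies each, overlaps included, in 3′ UTRs of 774, 1835 and 1822 bases. Rc3h1 held 2 in 7181 bases and Rc3h2 held 3 in 5160 bases. None was in the 3′ UTRs of Zc3h12a, 856 bases long, and Zc3h12d, 2327 bases long. The median 3′ UTR of all genes searched had 981 bases, and longer UTRs hold more matches. One site per gene follows, the first along its 3′ UTR, with 2 target mRNAs, Tnf and Pim1, for comparison. For Tnf the site with the most overlapping heptamers is shown instead. Capitals mark the heptamer or overlapping heptamers, all in the 3′ UTR.
Zfp36, chr7:28376968-28376992 (- strand): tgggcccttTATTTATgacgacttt
Zfp36l1, chr12:80108424-80108448 (- strand): atcaaaacgTATTTATtgccaaact
Zfp36l2, chr17:84184916-84184940 (- strand): tatttaactTATTTATtatcttgtg
Rc3h1, chr1:160970045-160970069 (+ strand): tttactcatTATTTATtgagatgag
Rc3h2, chr2:37374758-37374782 (- strand): cagctgcttTATTTATctttttcat
Tnf, chr17:35199673-35199697 (- strand): ttTATTTATTATTTATTTATttgct
Pim1, chr17:29495687-29495711 (+ strand): gttttaatgTATTTATTTATTTATt
The sites shown for the decay genes held a single whole heptamer, and those shown for Tnf and Pim1 held runs of overlapping heptamers. Each site was cut to 25 bases, and at Zfp36, Tnf and Pim1 a further copy crosses an edge of the site. At Zfp36 that copy starts at the last base shown, so its single heptamer reflects the cut. The 3′ UTRs of Tnf and Pim1 held 8 and 4 copies in 764 and 1365 bases. Other sites of Tnf held a single heptamer, and Zfp36 held 3 copies in 774 bases. The contrast is therefore one between the sites shown.

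RefSeq promoter entries on GRCm38.p6 were found for 6 of the 7 genes, all but Zfp36l2. The 250 bases before the start of the 3 genes called in both genotypes, as described further on, are shown, since they differ in the motifs matched. Both strands were searched for 7 motifs. The AP-1 motif was searched as TGANTCA, where N is any base. The motif of the cyclic AMP response factors was searched as TGACGTCA. The motif of the EGR factors was searched as GCGNGGGCG. The TATA box was searched as TATAAA. The GC box, bound by SP1, was searched as GGGCGG. The others were the CArG box, bound by serum response factor, and the NF-kB motif. Capitals mark matches other than the GC box.
Zfp36, chr7:28379229-28379478 (- strand): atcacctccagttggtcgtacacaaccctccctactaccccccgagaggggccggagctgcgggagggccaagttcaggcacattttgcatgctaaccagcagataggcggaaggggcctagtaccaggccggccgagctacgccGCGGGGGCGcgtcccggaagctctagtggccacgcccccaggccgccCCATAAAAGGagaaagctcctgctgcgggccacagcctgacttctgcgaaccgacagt
Zfp36l1, chr12:80113014-80113263 (- strand): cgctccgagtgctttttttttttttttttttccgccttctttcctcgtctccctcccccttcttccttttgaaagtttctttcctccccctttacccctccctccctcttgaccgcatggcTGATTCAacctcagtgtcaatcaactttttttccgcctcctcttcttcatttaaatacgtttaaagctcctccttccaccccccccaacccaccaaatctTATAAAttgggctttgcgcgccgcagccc
Zc3h12a, chr4:125127882-125128131 (- strand): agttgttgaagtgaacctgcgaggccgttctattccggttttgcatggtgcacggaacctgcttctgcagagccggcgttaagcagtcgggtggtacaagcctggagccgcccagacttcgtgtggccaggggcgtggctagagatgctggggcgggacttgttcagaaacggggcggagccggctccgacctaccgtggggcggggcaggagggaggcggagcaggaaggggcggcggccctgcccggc
The Zfp36 window held a CArG box from base 58 to base 49 before the start, which shares 1 base with a GC box match, and an EGR match from base 105 to base 97. A CArG box was in 1.47% and an EGR match in 4.70% of 32817 such windows. The window of Zfp36 lies within a longer annotated transcript of the same gene. Zfp36l1 had an AP-1 match, present in 6.75% of windows, and a TATA match, present in 12.4%. The window of Zc3h12a held 5 GC box matches and none of the other motifs, and 32.7% of windows held at least 1 GC box. Rc3h1 had an AP-1 match and 5 GC boxes, Zc3h12d had 1 GC box, and the window of Rc3h2 had no match. These are letters in a window and not evidence of binding.

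Zc3h12a and Zfp36 were the members with the largest differences between TFH-labelled and naive-labelled cells, and Zfp36l1 also rose. A call means a Benjamini-Hochberg adjusted p below 0.05 over all genes in limma. In KO 4 of the 7 genes were called higher, against 9.12% of all 14042 genes called higher, 10.4% called lower and 19.5% called in either direction. In WT 3 of 7 were called higher, against 12.6% of all genes called higher, 13.7% lower and 26.3% in either direction. In KO 5 of the 7 genes (Zfp36, Zfp36l1, Zfp36l2, Zc3h12a and Zc3h12d) had both TFH libraries above both naive libraries, against 27.6% of all genes, and none had them below, against 30.6% of all genes. In WT the same 5 genes had them above, against 33.1% of all genes, and none below, against 32% of all genes. No member was called lower in KO or WT. The smallest adjusted p of a negative difference was that of Rc3h2 in WT (limma adjusted p = 0.435). The median difference of the 7 genes was 0.35 in KO and 0.36 in WT, beside medians over all genes of -0.01 in KO and 0.01 in WT.

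**Figure D1:**
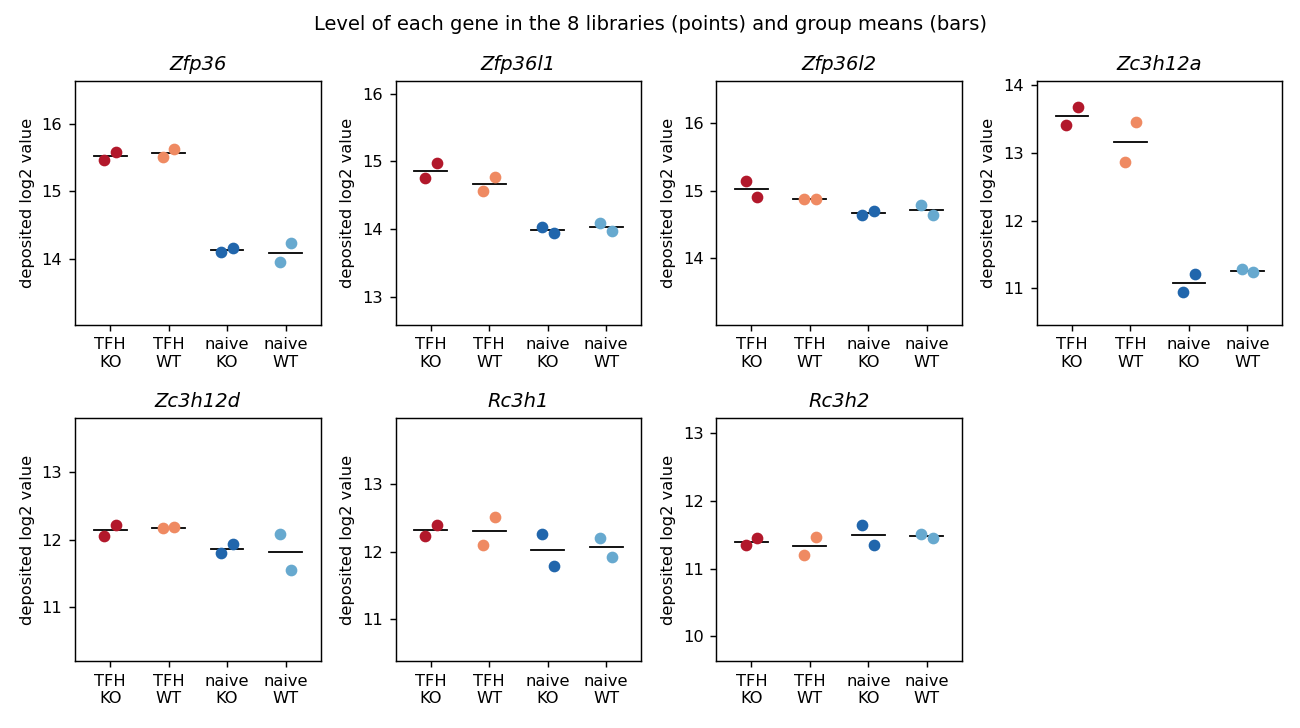
Deposited log2 value (y axis, 3.6 units high in every panel) of each of the 7 genes in TFH KO, TFH WT, naive KO and naive WT libraries. Points are the 2 libraries of a group and bars their mean; the TFH-labelled points of Zc3h12a, 12.86 to 13.68, and of Zfp36, 15.47 to 15.63, lie well above the naive-labelled ones, while those of Rc3h1 and Rc3h2 overlap.

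Among the proteins that bind AU-rich elements, Zfp36 had levels of 15.47 and 15.58 in TFH KO libraries, 15.50 and 15.63 in TFH WT, 14.11 and 14.17 in naive KO, and 13.95 and 14.24 in naive WT. All 4 TFH-labelled libraries lay above all 4 naive-labelled ones, with a gap of 1.23 between the nearest pair. Zfp36 rose by 1.38 ± 0.12 in KO (2.61-fold, limma adjusted p = 1.21e-05) and by 1.47 ± 0.12 in WT (2.77-fold, limma adjusted p = 6.71e-06). The change in WT exceeded that of 97.8% of all genes. Its group means stood in the order TFH WT at 15.57, TFH KO at 15.52, naive KO at 14.14 and naive WT at 14.09. The step between TFH KO and naive KO was the only one larger than the spread within groups.

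Zfp36l1, the relative of Zfp36 that like Zfp36l2 restrains growth of lymphocyte precursors, had levels of 14.75 and 14.98 in TFH KO, 14.57 and 14.76 in TFH WT, 14.04 and 13.94 in naive KO, and 14.10 and 13.97 in naive WT. The TFH-labelled libraries were again all above the naive-labelled ones, here by at least 0.48. It rose by 0.88 ± 0.12 in KO (1.84-fold, limma adjusted p = 0.000400) and by 0.64 ± 0.12 in WT (1.55-fold, limma adjusted p = 0.00232).

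Zfp36l2, which acts in thymocyte development and in T cell cytokine control, had levels of 15.13 and 14.91 in TFH KO, 14.88 and 14.87 in TFH WT, 14.64 and 14.69 in naive KO, and 14.78 and 14.63 in naive WT. The groups did not overlap, but the nearest TFH-labelled and naive-labelled libraries were 0.09 apart. Of all genes, 18.2% had all 4 TFH-labelled libraries above all 4 naive-labelled ones, and 20.3% had them below. In KO Zfp36l2 rose by 0.35 ± 0.11 (limma adjusted p = 0.0398). That call ended when a single library was left out: without TFH KO replicate 1 the difference was 0.24 (limma adjusted p = 0.240), without naive KO replicate 1 it was 0.33 (limma adjusted p = 0.138), and without naive KO replicate 2 it was 0.38 (limma adjusted p = 0.0958). It also ended without TFH WT replicate 1 (limma adjusted p = 0.0596) or replicate 2 (limma adjusted p = 0.0585), which alter only the shared estimate of spread. The difference in WT was 0.16 ± 0.11 (limma adjusted p = 0.296, 95% interval -0.07 to 0.40) and was not called.

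Of the Regnase genes, Zc3h12a had levels of 13.42 and 13.68 in TFH KO, 12.86 and 13.46 in TFH WT, 10.94 and 11.21 in naive KO, and 11.28 and 11.24 in naive WT. Each TFH-labelled library was at least 1.58 above each naive-labelled library, the widest gap among the 7 genes. Zc3h12a rose by 2.48 ± 0.19 in KO (5.57-fold, limma adjusted p = 0.000106) and by 1.90 ± 0.19 in WT (3.73-fold, limma adjusted p = 0.000345). In KO 84 genes of all had a larger rise. Its group means ran from TFH KO at 13.55 and TFH WT at 13.16 to naive WT at 11.26 and naive KO at 11.07. The TFH KO and TFH WT libraries overlapped, so those neighbours did not differ beyond their spread.

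Zc3h12d, the related nuclease, had levels of 12.06 and 12.22 in TFH KO, 12.17 and 12.18 in TFH WT, 11.80 and 11.93 in naive KO, and 12.08 and 11.56 in naive WT. The groups did not overlap within either genotype, but over both genotypes the lowest TFH-labelled library was 0.02 below the highest naive-labelled one. The differences of 0.27 ± 0.15 in KO (limma adjusted p = 0.253) and 0.36 ± 0.15 in WT (limma adjusted p = 0.114) were not called. Without naive WT replicate 1 the difference in WT was 0.62 and was called (limma adjusted p = 0.0103).

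The Roquin genes were not called in either genotype. Rc3h1 had levels of 12.24 and 12.40 in TFH KO, 12.10 and 12.52 in TFH WT, 12.26 and 11.79 in naive KO, and 12.21 and 11.93 in naive WT. Its differences of 0.29 ± 0.19 in KO (95% interval -0.16 to 0.74) and 0.24 ± 0.19 in WT (95% interval -0.21 to 0.69) were not called (limma adjusted p = 0.352 in KO and 0.409 in WT). Rc3h2, which can stand in for Rc3h1 in T cells, had levels of 11.35 and 11.45 in TFH KO, 11.21 and 11.46 in TFH WT, 11.65 and 11.35 in naive KO, and 11.51 and 11.45 in naive WT. Its differences of -0.10 ± 0.13 in KO (95% interval -0.38 to 0.17) and -0.15 ± 0.13 in WT (95% interval -0.42 to 0.13) were not called (limma adjusted p = 0.633 in KO and 0.435 in WT). For both genes the libraries of the 2 labels overlapped in each genotype.

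**Figure D2:**
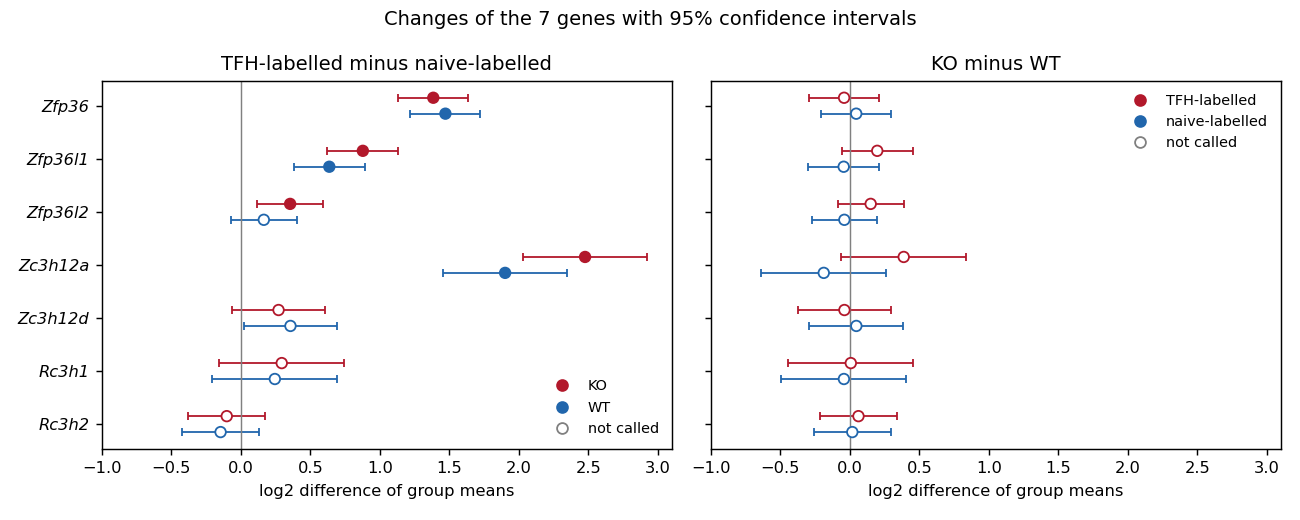
Log2 difference of group means (x axis) of each gene with its 95% confidence interval, for TFH-labelled minus naive-labelled libraries in KO and WT (left) and KO minus WT in TFH-labelled and naive-labelled libraries (right). Filled points were called at an adjusted p below 0.05: Zfp36, Zfp36l1 and Zc3h12a in both genotypes, with Zfp36l2 in KO, and none on the right.

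Within each family the genes moved by unequal amounts. The log2 difference between 2 paralogues in the same library was centred on its mean over the 8 libraries, so gene length plays no part in it. Zc3h12a minus Zc3h12d stood at 1.1 and 1.2 in TFH KO, 0.43 and 1.02 in TFH WT, -1.12 and -0.99 in naive KO, and -1.06 and -0.58 in naive WT. Zfp36 minus Zfp36l2 stood at 0.32 and 0.65 in TFH KO, 0.61 and 0.75 in TFH WT, -0.55 and -0.54 in naive KO, and -0.84 and -0.41 in naive WT. In both pairs every TFH-labelled library lay above every naive-labelled one. Rc3h1 minus Rc3h2 also separated the labels, but over a narrower range, from -0.32 in a naive KO library to 0.30 in a TFH WT library. These values describe a shift in balance and were not tested.

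**Figure D3:**
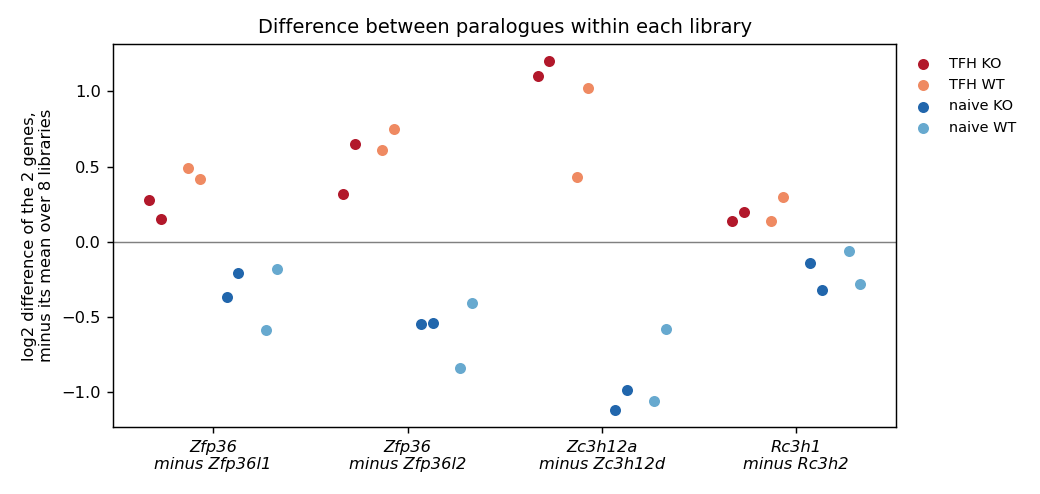
Log2 difference between paired paralogues in each library, minus its mean over the 8 libraries (y axis), for 4 pairs (x axis), with 2 points per group in the order TFH KO, TFH WT, naive KO, naive WT. TFH-labelled points lie above naive-labelled points in each pair, and the range is widest for Zc3h12a minus Zc3h12d, from -1.12 to 1.2.

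Comparing KO with WT asks whether loss of C5aR1 altered these genes. In TFH-labelled libraries none of the 7 was called, against 0% of 14042 genes called by limma, with 506 genes and none of the members at an unadjusted p below 0.05. The difference furthest from 0 was that of Zc3h12a at 0.39 ± 0.19 (95% interval -0.06 to 0.84, limma adjusted p = 1), and the TFH KO libraries overlapped the TFH WT libraries. With TFH WT replicate 1 left out it was 0.087, with replicate 2 of that group left out 0.69, and without TFH KO replicate 2 it was 0.26, none of them called. Zfp36l1 differed by 0.20 ± 0.12, Zfp36l2 by 0.15 ± 0.11 and Zfp36 by -0.04 ± 0.12. Zc3h12d at -0.04 ± 0.15, Rc3h1 at 0.01 ± 0.19 and Rc3h2 at 0.06 ± 0.13 completed the set. Both TFH KO libraries had Zfp36l2 above both TFH WT libraries, as did 16.5% of all genes.

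In naive-labelled libraries none of the 7 was called, against 0.0712% of all genes called (0.0356% higher and 0.0356% lower), and the 355 genes at an unadjusted p below 0.05 included none of them. Differences ran from -0.19 ± 0.19 for Zc3h12a to 0.05 ± 0.15 for Zc3h12d. Both naive KO libraries had Zc3h12a below both naive WT libraries, as did 11.2% of all genes. The interaction, the difference in KO minus that in WT, was called for none of the 7 (0.0142% of all genes called, 0.00712% higher and 0.00712% lower, with 614 genes at an unadjusted p below 0.05). For Zc3h12a it was 0.58 ± 0.28 (95% interval -0.06 to 1.21, limma unadjusted p = 0.0698, limma adjusted p = 0.997). The larger rise of Zc3h12a in KO than in WT was therefore not shown to differ between genotypes. The interaction was 0.28 without TFH WT replicate 1 and 0.88 without TFH WT replicate 2, again not called. Beside these comparisons, differences between TFH KO and TFH WT were positive in 13 of 14 B cell markers and 16 of 18 myeloid markers. They were positive in 11 of 12 CD8 and NK markers, and none was called. Markers of a cell type can vary together, so these counts are not independent observations. The mean log2 value of the 14 B cell markers was 7.49 and 11.02 in TFH KO and 7.58 and 9.58 in TFH WT. TFH KO replicate 1 thus lay below both TFH WT libraries, so the B cell sign rests on TFH KO replicate 2. The myeloid and the CD8 and NK means overlapped between these groups. Between naive KO and naive WT, 11 of 14 B cell markers and 1 of 18 myeloid markers had a positive difference. So did 2 of 12 CD8 and NK markers, and none was called. The myeloid mean was 9.66 in both naive KO libraries, and 10.89 and 9.51 in naive WT replicates 1 and 2. The myeloid sign thus rests on naive WT replicate 1. The B cell means overlapped. The CD8 and NK means did not, at 9.42 and 9.33 in naive KO and 9.63 and 9.58 in naive WT. The heat shock genes Hspa1a and Hspa1b, which cells make under stress, differed by -3.70 ± 1.42 and -3.87 ± 1.38 between TFH KO and TFH WT, and by -7.20 ± 1.42 and -6.53 ± 1.38 between naive KO and naive WT. For both genes both KO libraries lay below both WT libraries within each label, and neither gene was called (limma adjusted p = 1 between TFH groups and 0.9998 between naive groups). The part of these markers and stress genes in the values of the 7 genes was not tested.

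The decay machinery that these proteins recruit was called in shares to be read against 19.5% of all genes called in KO and 26.3% in WT. Of 15 measured genes for deadenylation, 1 was called higher and 2 lower in KO, and 2 higher and none lower in WT. Cnot10, a CCR4-NOT subunit, rose by 0.40 ± 0.10 in KO and by 0.43 ± 0.10 in WT, and Pan3, of the PAN2-PAN3 deadenylase, was at 0.33 ± 0.11 in KO, which was not called (limma adjusted p = 0.0577), and rose by 0.33 ± 0.11 in WT. The deadenylase gene Cnot6l and the ubiquitin ligase gene Cnot4 fell in KO, by 0.41 ± 0.10 and by 0.40 ± 0.11, and were not called in WT, at -0.23 ± 0.10 and -0.21 ± 0.11. The scaffold gene Cnot1, at -0.19 ± 0.13 in KO and -0.15 ± 0.13 in WT, was not called. Of 15 decapping genes 1 rose and 2 fell in each genotype. Patl1, a decapping activator, rose by 0.43 ± 0.10 in KO and by 0.38 ± 0.10 in WT. The decapping enzyme gene Dcp2 fell by 0.63 ± 0.15 in KO and by 0.44 ± 0.15 in WT, and the helicase gene Ddx6 fell by 0.51 ± 0.12 in KO and by 0.40 ± 0.12 in WT. Of 13 exosome genes 1 rose and 2 fell in KO, and 1 rose and 1 fell in WT. The nuclease gene Dis3 rose by 0.52 ± 0.10 in KO and by 0.57 ± 0.10 in WT, the core subunit gene Exosc4 fell by 0.44 ± 0.13 in KO and by 0.45 ± 0.13 in WT, and Exosc7 fell by 0.35 ± 0.11 in KO and was not called in WT at -0.25 ± 0.11. The medians of these 3 lists lay between -0.10 and 0.02 in KO and WT.

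A list of 16 genes held cofactors and regulators of the 7 proteins and other CCCH proteins such as Zc3hav1. Of these, 2 rose in KO and 5 in WT, with none called lower, against 9.12% of all genes called higher in KO and 12.6% in WT. Their medians were -0.05 in KO and -0.10 in WT. Malt1, the protease that cleaves Regnase-1 and Roquins in stimulated T cells, differed by 0.29 ± 0.12 in KO, which was not called (limma adjusted p = 0.103), and rose by 0.48 ± 0.12 in WT (limma adjusted p = 0.0107). Its partner gene Bcl10 rose by 0.64 ± 0.11 in KO and by 0.55 ± 0.11 in WT. Mapkapk2, the kinase that inactivates tristetraprolin by phosphorylation, differed by 0.27 ± 0.13 in KO, which was not called, and rose by 0.56 ± 0.13 in WT. Zc3hav1, a CCCH protein of antiviral defence, rose by 0.64 ± 0.10 in KO and by 0.66 ± 0.10 in WT, and N4bp1 was at 0.09 ± 0.11 in KO, which was not called, and rose by 0.41 ± 0.11 in WT. Arid5a, which protects some mRNAs from Regnase-1, and Nufip2, a Roquin partner, were not called, at -0.16 ± 0.10 and -0.16 ± 0.13 in KO and at -0.12 ± 0.10 and -0.27 ± 0.13 in WT. Of 14 other proteins that bind such elements, 1 rose and 1 fell in KO, against 9.12% of all genes called higher and 10.4% lower. In WT 5 rose and 1 fell, against 12.6% of all genes called higher and 13.7% lower, and the medians were 0.11 in KO and 0.27 in WT. Igf2bp3, an oncofetal mRNA-binding protein, was at 0.68 ± 0.22 in KO, which was not called (limma adjusted p = 0.0528), and rose by 1.64 ± 0.22 in WT. The splicing regulator gene Ptbp1 rose by 0.49 ± 0.10 in KO and by 0.48 ± 0.10 in WT. Hnrnpab, Fxr1 and Ybx1 were not called in KO, at 0.09 ± 0.10, 0.22 ± 0.10 and 0.20 ± 0.11, and rose in WT by 0.40 ± 0.10, 0.36 ± 0.10 and 0.37 ± 0.11. Celf1 was at -0.58 ± 0.18 in KO, which was not called (limma adjusted p = 0.0550), and fell in WT by 0.59 ± 0.18. The interaction was called for none of these genes. Elavl1, which stabilises AU-rich mRNAs, fell in KO by 0.32 ± 0.10 and was not called in WT at -0.17 ± 0.10.

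Many mRNAs known or reported as targets of the 7 proteins were higher in TFH-labelled libraries, alongside Zfp36 and Zc3h12a. Of all genes, 9.12% were called higher and 10.4% lower in KO, and 12.6% higher and 13.7% lower in WT. Of 16 measured targets of the ZFP36 family, 9 rose and none was called lower in KO, and 9 rose and none was called lower in WT. Over the alternatives the count ran from 4 to 13 in KO and from 7 to 13 in WT. In KO it was 5 without TFH KO replicate 2, 4 with the first library of each TFH group alone and 13 without the robust option. Medians of the list were 1.82 in KO and 1.38 in WT, beside -0.01 in KO and 0.01 in WT over all genes. The kinase gene Pim1 was at 15.20 and 15.37 in TFH KO, 15.13 and 15.36 in TFH WT, 12.96 and 13.17 in naive KO, and 13.03 and 13.05 in naive WT. It rose by 2.22 ± 0.12 in KO and by 2.21 ± 0.12 in WT. Tnf, the classical tristetraprolin target, rose by 0.77 ± 0.16 in KO and by 0.87 ± 0.16 in WT, and Myc by 0.81 ± 0.14 in KO and by 0.90 ± 0.14 in WT. The cytokine gene Lif rose by 2.41 ± 0.35 in KO and by 3.53 ± 0.35 in WT. Among others of the list, the survival gene Bcl2 rose by 0.96 ± 0.19 in KO and 0.84 ± 0.19 in WT, and the chemokine gene Cxcl2 by 1.95 ± 0.41 in KO and 1.51 ± 0.41 in WT. The receptor gene Notch1 rose by 0.49 ± 0.13 in KO and 0.77 ± 0.13 in WT, and the cell cycle inhibitor gene Cdkn1a by 2.06 ± 0.42 in KO and 2.31 ± 0.42 in WT. Ifng, at 1.56 ± 0.57 in KO and 2.18 ± 0.57 in WT (limma adjusted p = 0.0543), and Il2, at -0.72 ± 0.36 in KO and -0.04 ± 0.36 in WT, were not called. The heptamer was in the 3′ UTR of 14 of 15 of these targets with an annotated 3′ UTR. The list was built from genes known to carry such elements, so that share is no separate observation.

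Of 17 measured targets of Regnase-1 and Roquin, a list that holds Zc3h12a itself and shares 4 genes with the list above, 9 rose and 2 fell in KO, and 10 rose and 2 fell in WT, with medians of 0.82 in KO and 1.01 in WT. The genes that rose include Zc3h12a in each genotype. Of all genes, 9.12% were called higher and 10.4% lower in KO, and 12.6% higher and 13.7% lower in WT. Nfkbiz, an inducible NF-kB cofactor, had levels of 14.27 and 14.57 in TFH KO, 14.16 and 14.55 in TFH WT, 11.36 and 11.34 in naive KO, and 11.41 and 11.67 in naive WT. It rose by 3.07 ± 0.15 in KO and by 2.81 ± 0.15 in WT, with no overlap between the labels. Nfkbid rose by 1.10 ± 0.15 in KO and 0.87 ± 0.15 in WT, and the NF-kB subunit gene Rel by 1.56 ± 0.29 in KO and 1.33 ± 0.29 in WT. The transcription factor gene Irf4 rose by 1.20 ± 0.18 in KO and 1.22 ± 0.18 in WT, and the inhibitory receptor gene Ctla4 by 2.03 ± 0.23 in KO and 2.50 ± 0.23 in WT. Tnfrsf4, which encodes OX40, differed by 0.48 ± 0.29 in KO, which was not called, and rose by 1.15 ± 0.29 in WT (limma adjusted p = 0.0356). Icos, the costimulatory receptor whose mRNA Roquin-1 restrains, was not called, at 0.23 ± 0.25 in KO and 0.80 ± 0.25 in WT (limma adjusted p = 0.0629). The transferrin receptor gene Tfrc rose by 0.82 ± 0.09 in KO and by 1.01 ± 0.09 in WT, and Gata3, a transcription factor of T helper cells, rose by 0.59 ± 0.11 in KO and by 0.73 ± 0.11 in WT. The metabolic kinase gene Pdk1 and the interleukin 2 receptor gene Il2ra fell, by 0.85 ± 0.13 and 0.63 ± 0.10 in KO and by 1.14 ± 0.13 and 0.39 ± 0.10 in WT. No gene of either target list was called between KO and WT in TFH-labelled or naive-labelled libraries, or in the interaction, by limma. At an unadjusted limma p below 0.05 there was 1 such gene, Bcl2 in naive-labelled libraries, at -0.43 ± 0.19.

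**Figure D4:**
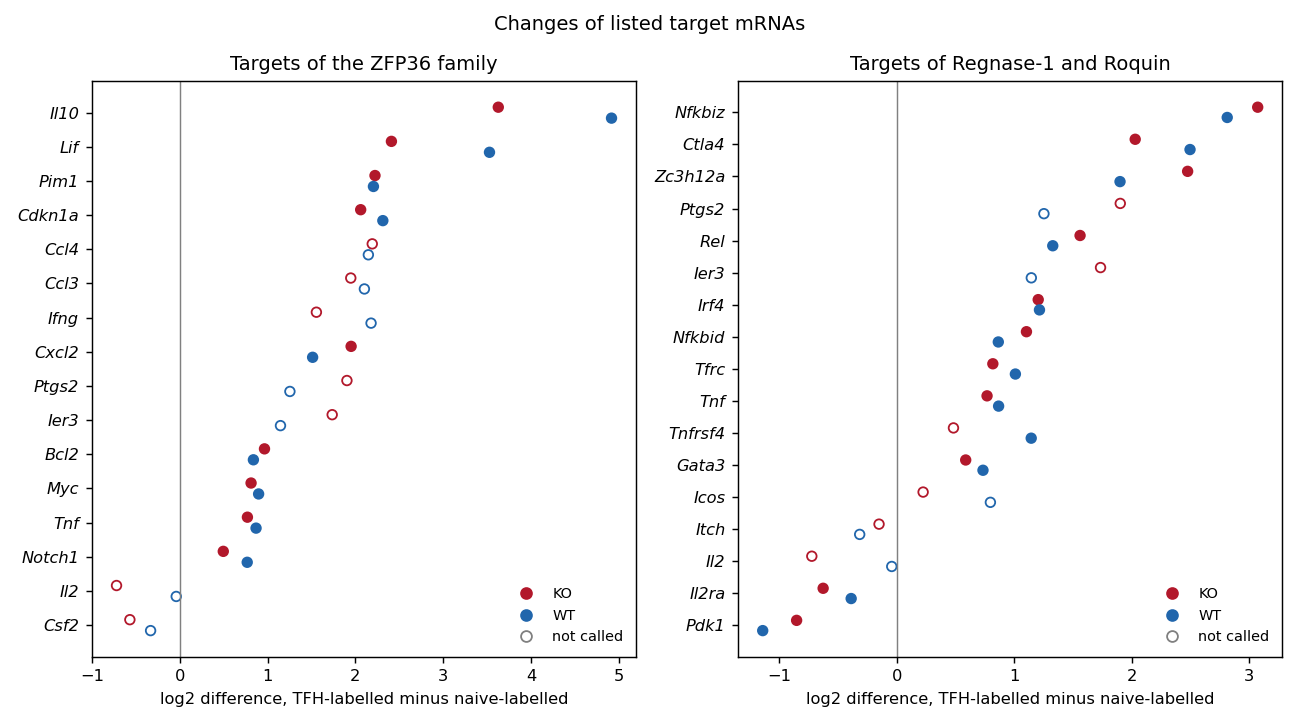
Log2 difference of TFH-labelled minus naive-labelled libraries (x axis) in KO and WT for the listed targets of the ZFP36 family (left, 16 genes) and of Regnase-1 and Roquin (right, 17 genes). Filled points were called at an adjusted p below 0.05; most genes lie to the right of 0, while Pdk1 and Il2ra lie to the left in both genotypes.

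Most of the listed genes that respond within minutes to stimulation or stress moved with Zfp36 and Zc3h12a. Of 14 such genes, 12 rose in KO and 12 in WT, against 9.12% of all genes called higher in KO and 12.6% in WT. Their medians were 2.41 in KO and 2.46 in WT. Hspa1a and Hspa1b went the other way in WT, with means of 8.87 and 9.94 in TFH WT and 9.99 and 11.90 in naive WT. The 14 genes summed to 6317 to 6897 parts per 1000000 in TFH-labelled libraries and to 1221 to 1828 in naive-labelled libraries. Myeloid cells also express Zfp36 and Zc3h12a. Of the 18 myeloid markers none was called higher in KO or WT, and 2 were called lower in KO and 3 in WT, against 10.4% of all genes called lower in KO and 13.7% in WT. Their medians were -1.06 in KO and -2.30 in WT, with a positive difference in 3 of 18 in KO and 1 of 18 in WT. Of 12 CD8 and NK cell markers 5 fell in KO and 6 in WT, and of 14 B cell markers none was called. The part of stimulation during preparation, and of other cells in the sort, in the changes of the 7 genes was not tested. In bulk samples, fewer cells of a type and less RNA per cell cannot be told apart. Using the first library of each TFH group alone, where B cell markers were lowest, Zfp36, Zfp36l1 and Zc3h12a were still called in both genotypes. With the B cell marker level as a covariate, the called members were Zfp36, Zfp36l1, Zfp36l2 and Zc3h12a in KO and these without Zfp36l2 in WT. T cell identity genes, 11 in all, summed to 5870 to 6534 parts per 1000000 in TFH-labelled and to 6739 to 7195 in naive-labelled libraries.

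The genes whose centred profile over the 8 libraries came closest to that of each member were sought among the 7020 others with a mean level above the median. Closeness is the root mean square (RMS) of the log2 differences, which is set mostly by the size of the change between labels. Closest to Zfp36 were Ing2, Armcx5 and Atf4, with RMS values of 0.08, 0.09 and 0.10, against 0.72 for the profile of Zfp36 itself around its mean. Closest to Zc3h12a were Hspa5, Pim1 and Mafk, at 0.16, 0.17 and 0.18, against 1.12. Pim1, which is also on the list of ZFP36-family targets, and Hspa5, a chaperone of the endoplasmic reticulum, differed by 2.21 and 2.11 between TFH WT and naive WT. Closest to Zfp36l1 were Mapk6, Ddx3x and Pde4b, each at 0.08 against 0.39. Zfp36l2 had Sqstm1, Dnajb12 and Arl8b at 0.04 to 0.05 against 0.16. For Zc3h12d they were Lpin2, Ccdc50 and Itgav at 0.08 against 0.21. For Rc3h1 they were Dnmt3a, Spen and Hivep1 at 0.05 against 0.22, and for Rc3h2 they were Trak2, Pphln1 and Nup214 at 0.01 to 0.04 against 0.12. For these last genes the profiles are nearly flat, so closeness says little.

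All 7 are protein-coding genes in GENCODE vM21 on GRCm38. Zfp36 is at chr7:28376784-28380253, Zfp36l1 at chr12:80107754-80113013, Zfp36l2 at chr17:84183931-84187947 and Zc3h12a at chr4:125118423-125127840, all on the minus strand. Zc3h12d is at chr10:7832470-7870396 and Rc3h1 at chr1:160906418-160974978 on the plus strand, and Rc3h2 is at chr2:37370069-37422903 on the minus strand. Zfp36, Zfp36l1 and Zfp36l2 each overlap a non-coding gene on the opposite strand that has no row in the tables (Gm44710, Gm26669 and AC132455.1). Zc3h12d overlaps Gm24726 on the opposite strand and Mir5104 on its own strand. On their own strands Rc3h1 overlaps Gm37052, Gm37809 and Gm37653, and Rc3h2 overlaps Snord90. These genes have no row either. Whether the counting used strand is not given in the sources used here, so without it reads of either gene of an opposite-strand pair cannot be told apart. For genes that overlap on the same strand, strand does not separate the reads.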

How the data were processed

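The authors deposited 1 table per library with a log2 expression value for 14042 gene symbols. The submitters' processing notes name BWA and mm10. The sources used here do not name the counting tool, annotation or normalization. The sorted deposited log2 values of the 8 libraries differ from those of the median library by at most 0.03 once the lowest percentile is set aside, as quantile normalization leaves them, which removes differences in overall spread; depth is unknown and no counting interval can be given. Reads were single-end, 51 bp, per the labels' protocols. The values, 1.16 to 19.48, were analysed as they stand with limma 3.58.1 (R 4.3.3), with 1 mean for each of 4 groups, all 8 libraries, 4 residual degrees of freedom, a prior variance following mean level, and robust estimation. Benjamini-Hochberg adjustment ran over all genes in each of 5 comparisons. The fit was tested on simulated data. Replicates are numbered by deposit order, which pairs no libraries. The members, gene lists, tests and alternatives were chosen with earlier results of these data known. The genes named are the 7 members, a fixed set of regulators and targets, up to 6 called genes per list with the smallest p-values and, per member, the 3 closest profiles. Promoter sequences are RefSeq's and 3′ UTRs those of GENCODE vM21, the principal coding transcript per gene.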

Additional observations from a re-analysis of the deposited data

How the results depend on the processing

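Zfp36, Zfp36l1 and Zc3h12a stayed called higher in TFH-labelled libraries in KO and in WT under all 16 alternatives, with changes of 1.33 to 1.44, 0.76 to 0.99 and 2.34 to 2.61 in KO and of 1.33 to 1.61, 0.54 to 0.73 and 1.60 to 2.20 in WT. The Zfp36l2 call in KO ended under 8 of 16: with no trend (0.35, limma adjusted p = 0.0912), with the compared groups only (0.35, limma adjusted p = 0.0783), with the first library of each TFH group alone (0.47, limma adjusted p = 0.0664) and in 5 fits without 1 library, where it ran from 0.24 to 0.38. Over all fits without 1 library it ran from 0.24 to 0.47, the highest being without TFH KO replicate 2, where it was still called. Zc3h12d in WT was called without naive WT replicate 1 (range without 1 library 0.094 to 0.62). No member was called in KO against WT or in the interaction under any alternative run; for the interaction, a fit of the compared groups only does not exist. The cause of these losses was not tested. Without 1 library, the count of all genes called ran from 1399 to 2683 in KO, 1991 to 3726 in WT, 0 to 2 for KO against WT in TFH-labelled and 7 to 17 in naive-labelled libraries, and 1 to 7 for the interaction. It was 1225 in KO and 2104 in WT with the first library of each TFH group alone. For KO against WT in TFH-labelled libraries it was 1 with the compared groups only. For the interaction it was 0 with no trend and 1 after centring on ribosomal protein genes, which moved the median of all genes by less than 0.1. Where a group has 1 library left, it is assumed to vary like the others. No paired analysis was possible because the labels give no replicate numbers.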
